A study of Mus musculus with 8 samples.

Results

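In testes lacking H3f3b, 444 stretches of H3K4me3 chromatin were wider in base pairs than in wild-type testes. Far more were narrower on that scale. Relative to each library's median length over the stretches found in all 4 libraries, more were wider than narrower (2706 and 1827). The 444 were chosen by their covered lengths, after the autosomal intervals of 4 lists of H3K4me3 regions were merged where they overlapped or touched. This gave 16000 merged regions on the 19 autosomes, of which 9520 were covered in all 4 libraries (shared regions). A shared region was counted as wider when the smaller of its KO covered lengths exceeded the larger of its WT covered lengths. The covered length is the number of base pairs that a library's intervals occupy inside the merged region. The 444 regions were 4.66% of the shared regions, and 4528 shared regions (47.6%) met the mirrored rule and were narrower in both KO libraries. Because the rule itself compares KO with WT lengths, the differences in length below are a description and carry no test.

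The ChIP-seq libraries came from whole testes of adult mice of the strain C57BL/6, which were null for H3f3b (libraries KO 67 and KO 73) or wild type at that gene (WT 66 and WT 74), with the same antibody in both genotypes. The labels do not state how the null allele was made, in which cells it was active, or whether each number is a separate animal, so the spread between libraries may be technical. Each of the 4 libraries had a matching input library, which was not analysed here. In whole tissue, a change of the mark within a cell type and a change in how many cells of that type were present cannot be told apart. Neither the cell types nor the targeted gene was examined, because gene positions in mm9, the build of the lists, were not used here. For the same reason regions are given by position and without gene names.

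H3K4me3 is the trimethylated form of lysine 4 of histone H3, and it is laid down by SET domain methyltransferases around the start sites of active or poised genes. At many such sites the mark lies on nucleosomes to either side of a stretch with few nucleosomes, so that a promoter can appear as a pair of enriched intervals with a dip between them. H3f3b and H3f3a both encode H3.3, a histone H3 variant that is placed into chromatin outside DNA replication at active genes and regulatory sites. In the testis, H3.3 is also taken up by the sex chromosomes during meiosis, before most histones are replaced by protamines.

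The lists held 10502 regions in KO 67, 12497 in KO 73, 14078 in WT 66 and 14551 in WT 74. The deposited scores ran in even steps, and if 1 step is 1 tag and the lists were scaled alike, which is not stated, the depth relative to KO 73 was 4.46 in KO 67, 1.66 in WT 66 and 1.04 in WT 74. The narrowest intervals of every list were 501 bp long, the next ones began at 626 bp, and none lay between. Lengths near this floor therefore moved in a jump.

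The 444 wider regions were short in WT and stayed of moderate length in KO. Their covered length had a median of 1186 bp in KO 67, 1214 bp in KO 73, 1031 bp in WT 66 and 960 bp in WT 74. Over all 9520 shared regions the medians were 1365 and 1362 bp in KO and 1654 and 1539 bp in WT. The wider regions were thus shorter than the typical shared region in each of the 4 libraries, and by more in WT. In sum they covered 565 kb in KO 67 and 581 kb in KO 73, against 486 kb in WT 66 and 470 kb in WT 74.

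The gain in length was mostly small. The ratio of the mean KO to the mean WT length had a median of 1.17, with quartiles of 1.11 and 1.29, and a median log2 value of 0.22. Over all shared regions the median log2 value was -0.18. In 82 of the 444 regions (18.5%) the KO mean was less than 1.1 times the WT mean, and in 30 it was at least 1.5 times the WT mean. The margin, defined as the smaller KO length minus the larger WT length, had a median of 64.5 bp and reached at least 100 bp in 165 regions, 200 bp in 44 and 500 bp in 6. Over the regions that then met the rule, the median margin was 113 bp without WT 66 and 92 bp without WT 74. It was 121 bp without KO 67 and 82 bp without KO 73. Fewer comparisons per region favour larger margins by construction. The 2 libraries of a genotype differed as well: the median SD over the wider regions was 57.6 bp in KO and 64.3 bp in WT (n = 2 each). In 122 regions (27.5%) the margin was larger than the difference between the KO libraries and larger than that between the WT libraries. In the others the separation of the genotypes was no larger than the disagreement within 1 of them.

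**Figure D1:**
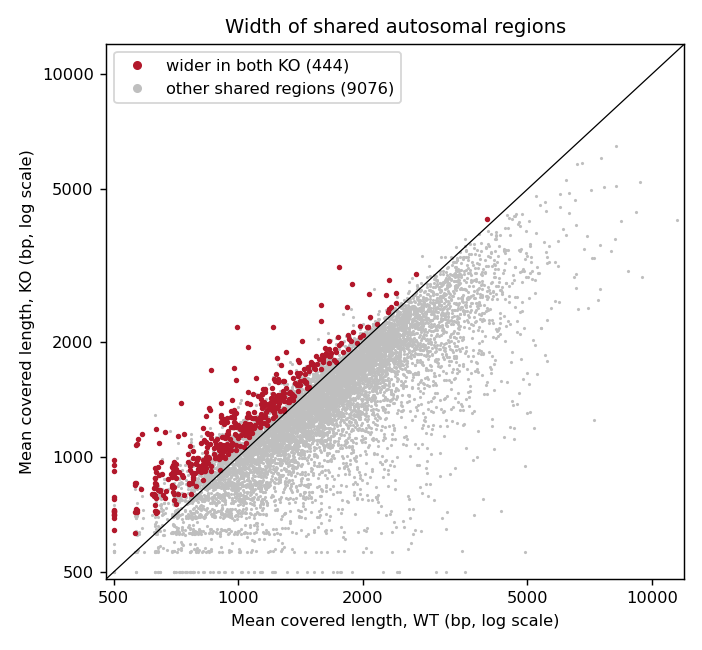
Mean covered length in KO (vertical axis, bp, log scale) against mean covered length in WT (horizontal axis, bp, log scale), each over 2 libraries, for the 444 regions wider in both KO libraries (red) and the other 9076 shared autosomal regions (grey). The line marks equal lengths; the red points lie above it by construction and most of the grey cloud lies below it.

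Regions close to the edge of the rule show how fine the line was. At chr12:4823575-4825254, covered lengths were 1531 bp in KO 67 and 1490 bp in KO 73, against 1454 bp in WT 66 and 1489 bp in WT 74, a margin of 1 bp. The region at chr9:53344175-53346336 also entered by 1 bp, with 2050 and 2117 bp in KO and 2049 and 1958 bp in WT. Just outside, the region at chr1:129765012-129766396 had 1169 and 1247 bp in KO and 1169 and 1162 bp in WT, a margin of 0. There were 53 regions with a margin of 1 to 10 bp and 94 with a margin of -10 to 0 bp. The 94 include ties at 0, among them a region at the floor of 501 bp in all 4 libraries (chr1:186822890-186823455).

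The widest gap between the genotypes was at chr17:86565787-86568053. Its length was 2090 bp in KO 67, 2267 bp in KO 73, 1029 bp in WT 66 and 960 bp in WT 74. Both KO libraries were more than 1000 bp above both WT libraries, and each library held 1 unbroken interval. The means were 2178.5 ± 125 bp in KO and 994.5 ± 48.8 bp in WT (SD, n = 2 each), a ratio of 2.19. Both KO intervals began at least 136 bp before the earlier WT interval and ran at least 871 bp past the later WT end, so that most of the added length lay on one side.

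One-sided extension was also clear at chr7:119822088-119823947, where lengths were 1505 bp in KO 67 and 1860 bp in KO 73, against 772 bp in WT 66 and 943 bp in WT 74. Here both KO intervals reached at least 639 bp past the WT intervals on the lower-coordinate side, whereas on the other side KO 67 ended short of WT 74. The region at chr4:53171529-53173084 had the same form on a smaller scale, with 1516 and 1445 bp in KO against 1102 and 1010 bp in WT and a common KO reach of 246 bp past WT on the lower-coordinate side. At chr19:61300958-61303343, the KO libraries covered 1982 and 2386 bp and the WT libraries 1615 and 814 bp. In this last region the WT libraries were 801 bp apart, against a margin of 367 bp, and WT 74 was much the shorter.

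Several of the top regions owed their greater length to a filled gap. At chr4:116666272-116668872, covered lengths were 2408 bp in KO 67 and 2507 bp in KO 73, against 1777 bp in WT 66 and 1891 bp in WT 74. Both WT libraries had 2 intervals separated by a gap, of 656 bp in WT 66 and 632 bp in WT 74, at nearly the same place. Both KO libraries had 1 interval across it, and the outer limits of the WT intervals were not passed by both KO libraries on either side. The whole gain of 629 bp common to the KO libraries therefore lay inside the WT gap.

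The region at chr11:57821562-57824620 showed the same pattern. Its length was 2671 bp in KO 67, 2657 bp in KO 73, 2318 bp in WT 66 and 1835 bp in WT 74. The WT gaps measured 741 and 661 bp, and both KO intervals ran through them. These were the only 2 of the 444 regions with a gap in both WT libraries and none in either KO library, and 7 of all 9520 shared regions had this form. The reverse, a gap in both KO libraries and none in WT, occurred in 37 shared regions and in none of the 444.

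At chr19:26679026-26682627, the KO libraries covered 2938 and 3325 bp and the WT libraries 2045 and 1458 bp. WT 66 had a gap of 888 bp, WT 74 had only the interval on the higher-coordinate side of that gap, and both KO libraries were unbroken, so the KO intervals joined what WT 66 showed as 2 peaks. The means were 3131.5 ± 274 bp in KO and 1751.5 ± 415 bp in WT (SD, n = 2 each). At chr7:16632198-16634421, lengths were 1815 and 2050 bp in KO against 766 and 1347 bp in WT, with a gap of 502 bp in WT 74 and an interval in WT 66 that ended near the start of that gap. The 2 WT libraries were 581 bp apart there, more than the margin of 468 bp.

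The KO libraries did not always fill a dip alike. At chr3:96289991-96293168, lengths were 3147 bp in KO 67 and 2509 bp in KO 73, against 1895 bp in WT 66 and 1870 bp in WT 74. KO 67 was unbroken, whereas KO 73 kept a gap of 649 bp, only somewhat shorter than the 736 and 826 bp of the WT libraries. Its wider neighbour, at chr3:96261866-96264781, had 1772 and 2767 bp in KO and 1526 and 1648 bp in WT. There KO 73 was the unbroken library and KO 67 had a gap of 697 bp. Another wider region lay nearby, at chr3:96217986-96218998, with 1013 and 973 bp in KO against 787 and 800 bp in WT and a common KO reach of 65 bp past WT on each side. It was picked out after its values were seen, for its place beside the other 2.

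**Figure D2:**
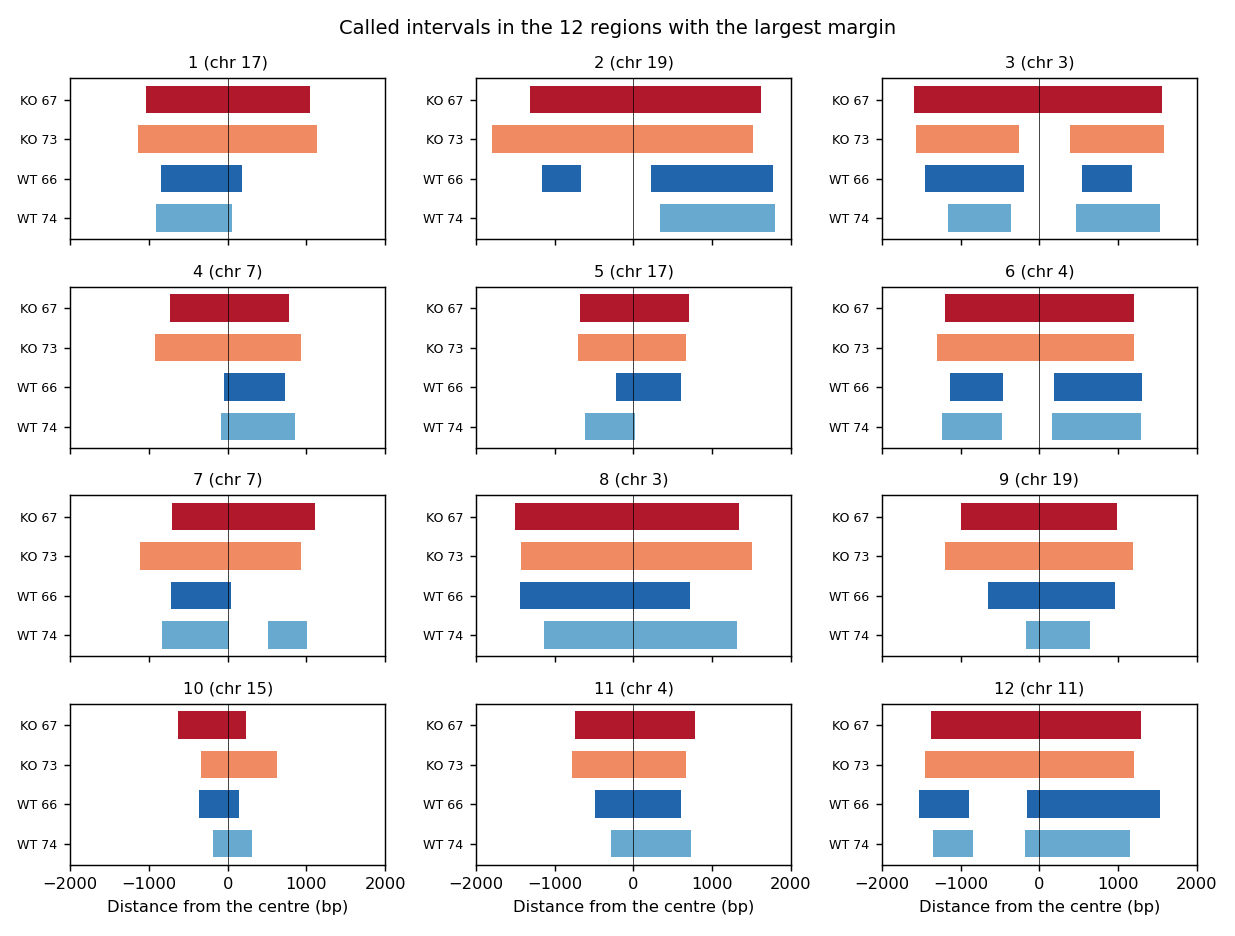
Called intervals (bars) in KO 67, KO 73, WT 66 and WT 74 for the 12 wider regions with the largest margin, numbered by margin; the horizontal axis is the distance from the centre of the merged region (bp). Regions 6 and 12 show 1 interval in each KO library and 2 in each WT library, region 4 shows KO intervals that run past the WT intervals on one side, and region 1 on both sides, mostly on one.

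Other regions in the first 12 had few or no bases that were common to the KO libraries and outside both WT libraries. At chr17:53828111-53829525, lengths were 1387 and 1375 bp in KO against 829 and 627 bp in WT, but WT 66 and WT 74 lay towards opposite ends of the KO interval, and only 135 bp common to the KO libraries lay outside both. At chr15:81352730-81353988, lengths were 859 and 973 bp in KO and 501 bp in each WT library. The KO libraries extended in opposite directions, and no base was covered by both of them and by neither WT library. The region at chr3:51143185-51146201, with 2850 and 2932 bp in KO against 2160 and 2461 bp in WT, likewise had only 21 bp that were common to KO and outside WT. A larger covered length in both KO libraries thus did not always mean that the same bases were gained.

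**Figure D3:**
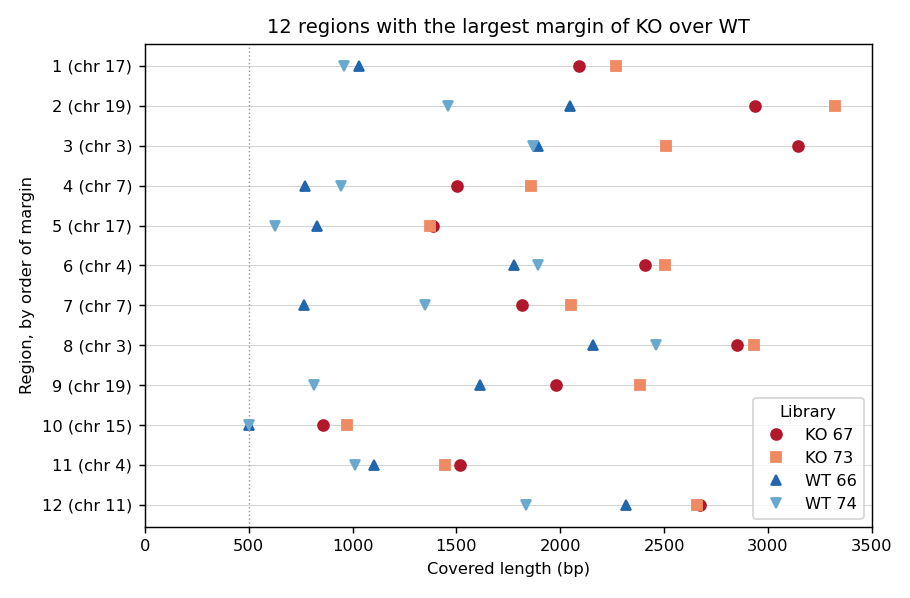
Covered length (bp) in each of the 4 libraries for the 12 wider regions with the largest margin, which ran from 339 to 1061 bp. KO 67 and KO 73 lie to the right of both WT libraries in each row; the dotted line marks the narrowest interval, 501 bp, at which both WT libraries sit in region 10.

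Several of the largest ratios came from regions at the floor in WT, although the largest, that at chr17:86565787-86568053, did not. Of the 8 regions with the largest ratio of mean lengths, 5 had a WT library at 501 bp. At chr15:95620817-95622024, lengths were 755 bp in KO 67 and 1208 bp in KO 73, against 501 bp in both WT libraries, a ratio of 1.96. At chr6:108162506-108163894, they were 912 and 1382 bp in KO and 501 and 672 bp in WT. The KO libraries were 453 and 470 bp apart in these regions, and KO 73 was the longer in both.

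The remaining regions of this group were alike in size. The region at chr10:59569053-59570484 covered 920 and 1313 bp in KO and 646 and 501 bp in WT, and that at chr7:112702429-112703551 covered 780 and 1123 bp in KO and 501 bp in each WT library. At chr2:84887755-84889094, with 1233 and 931 bp in KO against 501 and 638 bp in WT, the intervals of WT 66 and WT 74 did not overlap each other at all, and the KO intervals ran across the space between them. It was the only one of the 444 regions with separate WT intervals, of 3 among all shared regions.

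In all, 40 of the 444 regions (9.01%) had at least 1 WT library at 501 bp, against 1.92% of the shared regions, and 14 had both. The median log2 ratio was 0.51 in these 40 regions and 0.21 in the other 404. Since a WT library at the floor cannot be shorter, and the next length is 626 bp, the ratios of these regions depend on where the authors' tool set its narrowest interval. In the 404 others the largest log2 ratio was still 1.13, that of the region on chromosome 17 described first.

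Broad WT domains were almost absent among the wider regions. Of the 822 shared regions with a mean WT length of 3000 bp or more, 1 was wider in both KO libraries (0.122%). That region, at chr8:96333623-96337945, covered 4198 and 4181 bp in KO and 3803 and 4175 bp in WT, and it owed its place to a gap of 519 bp in WT 66. Of the shared regions of 2000 bp or more but under 3000 bp, 15 of 2068 were wider (0.725%). The class that began at 1500 bp had 42 of 2394 (1.75%), and the class that began at 1000 bp had 163 of 2800 (5.82%). Among the shortest the share was 12.2% (133 of 1089) in the class that began at 750 bp and 25.9% (90 of 347) under 750 bp. The share that was narrower in both KO libraries ran the other way, at 4.90% in the shortest class and 89.2% in the widest.

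This order follows in part from the sorting itself. WT length is one side of the rule, which by itself favours regions that are short in WT. Sorted by KO length instead, the share of wider regions was 2.84%, 7.11%, 6.10%, 3.06% and 2.27% over the same classes from the shortest up, and 2 of 200 regions (1.00%) at 3000 bp or more. By KO length the wider regions were thus most frequent between 750 and 1500 bp. KO length is the other side of the rule, so this order too follows in part from the sorting. A wider region cannot be at the floor of 501 bp in a KO library, which lowers the share in the shortest class. A region absent from any library is not in the shared set, so short regions are counted only where all 4 libraries detected them.

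**Figure D4:**
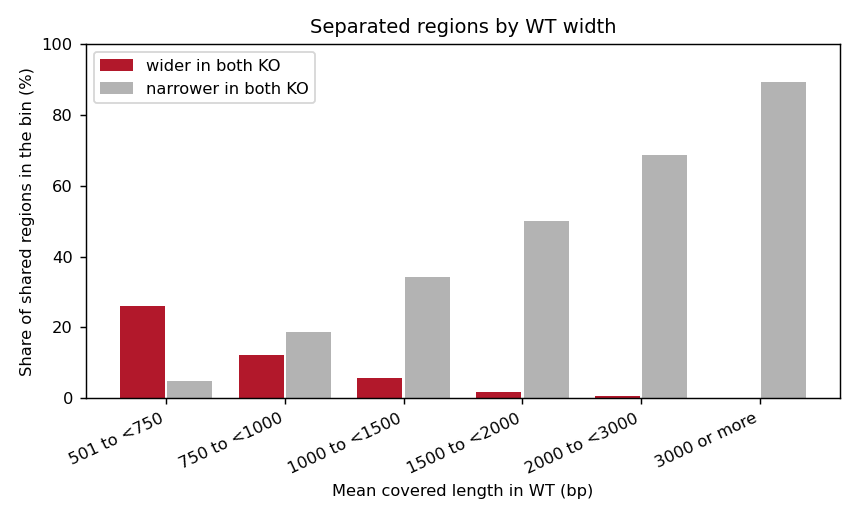
Share of shared autosomal regions (vertical axis, %) that were wider in both KO libraries (red) or narrower in both (grey), by mean covered length in WT (horizontal axis, bp). The share of wider regions goes down from 25.9% in the shortest class to 0.122% in the widest, and the share of narrower regions goes up from 4.90% to 89.2%; WT length is part of the rule, so the order is a description.

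The other wide members gained little. The region at chr13:55311381-55314561 covered 2933 and 3061 bp in KO and 2902 and 2495 bp in WT, with a gap of 573 bp in WT 74. At chr4:71860174-71862982 the lengths were 2552 and 2808 bp in KO and 2542 and 2275 bp in WT. The regions at chr1:59819372-59822085 and at chr14:79879922-79882499 had ratios of 1.05 each. In all 4 the margin was 31 bp or less, below the difference between the WT libraries on chromosomes 13, 4, 1 and 14 alike.

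The added length lay mostly at the outer edges. In 355 of the 444 regions (80.0%) both KO libraries reached past both WT libraries on at least 1 side, against 11.8% of all shared regions. This contrast is built into the rule and is given only to describe the form. Extension on 1 side alone was the more frequent form, with 290 regions (65.3%), and 65 regions (14.6%) were extended on both sides. Over all shared regions these shares were 11.1% and 0.683%. Among the 444, 361 regions had bases covered by both KO and neither WT library. The bases lay wholly outside the WT limits in 353 of them (97.8%) and at least partly in a WT gap in 8. Over all shared regions with such bases, they lay wholly outside the WT limits in 1121 of 1134 (98.9%). Gain at the outer edges was thus not particular to the wider regions. Such bases lay in a WT gap in 13 shared regions, which include the 8. The gaps of these 8 regions held 3.13 kb of the 38.7 kb of such bases in the 444.

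The KO libraries agreed on part of what was added. Of the bases outside both WT libraries, 38.4% were covered by both KO libraries, 22.8% by KO 67 alone and 38.8% by KO 73 alone. The median region had 35.4% of its added bases in both. KO 73, the library with the coarsest score step, was the longer of the 2 KO libraries in 247 of the 444 regions and KO 67 in 194, whereas KO 67 was the longer in 53.8% of all shared regions. Most of the WT cover was common, with a median of 82.1% of the WT-covered bases present in all 4 libraries. In 83 of the 444 regions no base was covered by both KO and neither WT library. The same held for 8386 of the 9520 shared regions, a contrast that the rule favours.

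The lower-coordinate side was extended more often than the other. Among the wider regions, 182 were extended on the lower-coordinate side alone and 108 on the higher-coordinate side alone, with 21.9 kb and 13.6 kb of bases common to KO and outside WT on those sides over all 444 regions. Over all shared regions the numbers were 579 and 479. The median midpoint lay 36.8 bp lower in KO 67 and 17.5 bp lower in KO 73 than in WT 66, and 1.25 bp higher in WT 74. Over all shared regions it lay 8.5 bp lower in KO 67 but 11.5 bp higher in KO 73. The median midpoints of the KO libraries, taken against WT 66, thus had no common direction there. By counts of outer edges, however, all shared regions leaned the same way as the wider ones. Both WT libraries reached past both KO libraries on the lower-coordinate side in 3562 shared regions and on the other side in 3970. The strand of the genes at these regions was not used here, and no test was made of the asymmetry.

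**Figure D5:**
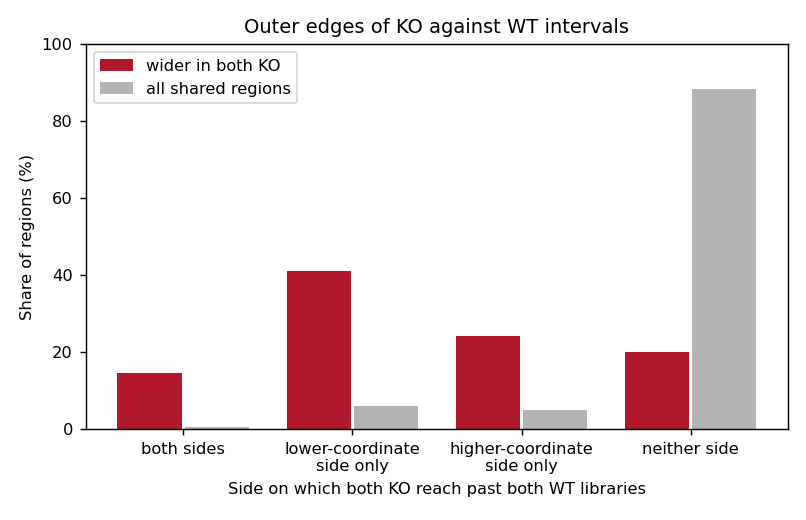
Share of regions (vertical axis, %) in which both KO libraries reached past both WT libraries on both sides, on 1 side only or on neither, for the 444 regions wider in both KO libraries (red) and all 9520 shared regions (grey). The wider regions were extended most often on the lower-coordinate side alone (41.0%), and 89 of them passed WT on neither side.

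A smaller set was displaced as well as wider. In 44 of the 444 regions (9.91%) both KO libraries reached past WT on one side while both WT libraries reached past KO on the other, against 3.43% of all shared regions. The rule favours regions with a KO overhang, so this contrast is partly built in. By midpoint, in base pairs, the wider regions were not the more displaced. The mean KO and WT midpoints lay a median of 55.4 bp apart in them and 67 bp apart in all shared regions. The wider regions were also shorter, with a median WT mean length of 992.5 bp against 1596.5 bp, and shifts relative to length were not compared. The midpoints lay more than 200 bp apart in 3.83% of the wider regions and in 12.2% of all shared regions. Of the 1165 shared regions with such a shift, 917 were narrower in both KO libraries. In the 44 regions the KO overhang had a median of 122.5 bp and the WT overhang one of 24 bp. The KO overhang was on the lower-coordinate side in 37 of these regions and on the other side in 7, and over all shared regions in 208 and 119. An example with a large overhang, chosen after its values were seen, was at chr4:129053981-129055618, where 769 and 1411 bp were covered in KO and 626 and 661 bp in WT, and 608 bp were common to KO and outside WT on the lower-coordinate side. KO 67 covered no base of either WT interval there, and was joined to them only through the interval of KO 73.

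Gaps inside a library were rare and lay more often in WT than in KO among the wider regions. More than 1 interval was found in 3 regions in KO 67 and 1 in KO 73, against 7 in WT 66 and 8 in WT 74. Over all shared regions the order was the other way round, with 129 and 162 in KO against 66 and 108 in WT. A gap in at least 1 WT library with none in KO was seen in 7 of the 444 regions (1.58%) and 0.893% of the shared regions, and the reverse in 0 of the 444 and 1.66% of the shared regions. A gap lowers the covered length, so the rule favours gaps in WT and disfavours gaps in KO.

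The wider regions were of middling rank by the authors' score within each list. Their median rank was the 40.8th percentile of the KO 67 list, the 51.8th of KO 73, the 40.3rd of WT 66 and the 41.8th of WT 74. For all shared regions the medians were the 54.4th and 61.4th in KO and the 65.1st and 65.8th in WT. The lists differ in length, so each rank is to be read within its own list, and no difference in rank between KO and WT is drawn. The region on chromosome 17 with the widest gap ranked at the 51.3rd and 72.0th percentiles in KO and at the 29.5th and 30.7th in WT.

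Only 4 wider regions stood above the 90th percentile of all 4 lists (0.901%), against 734 of all shared regions (7.71%). A pair of them lay at chr8:19784162-19785807 and chr8:20019184-20020978, and both were above the 99.6th percentile of every list. The first covered 1646 and 1486 bp in KO and 1322 and 1171 bp in WT, and the second 1795 and 1737 bp in KO and 1449 and 1361 bp in WT. The KO libraries were longer by similar amounts in both, with log2 ratios of 0.33 each. Whether reads there map to 1 place only was not tested.

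The wider regions were spread over all autosomes, and had a wider region as nearest neighbour about as often as shared regions at large. Their share of the shared regions ran from 3.03% on chromosome 10 (15 of 495) to 5.93% on chromosome 2 (45 of 759), around the 4.66% of all autosomes. The nearest shared region was itself wider in 19 of the 444 (4.28%), and over all shared regions in 4.36%. It was narrower in both KO libraries for 45.7% of the wider regions and for 48.0% of all shared regions. The median log2 ratio of the nearest shared region was -0.17, close to the -0.18 found around any shared region. Regions beside a wider one thus had the values of shared regions at large, and no more than 2 wider regions followed each other directly, in 19 places.

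The wider regions stood slightly apart from other H3K4me3 regions. The median distance to the next merged region was 29.0 kb, against 25.6 kb for all shared regions. Another merged region lay within 5000 bp for 37 of the 444 (8.33%) and for 12.1% of the shared regions. At least 100 kb from the next one were 66 of the 444 (14.9%) and 12.2% of the shared regions. The distances were not tested.

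How many regions counted as wider depended on the scale on which KO and WT lengths were compared. With each length divided by its library's median over the shared regions, 2706 regions (28.4%) were wider in both KO libraries and 1827 (19.2%) narrower, in place of 444 and 4528. This scaling moved the median log2 ratio of all shared regions to 0.05, and all 444 regions were among the 2706. The 444 regions are thus those that were wider in base pairs as deposited, while a far larger set was wider relative to the other regions of its library. Without 1 library, from 927 (without WT 74) to 1673 (without WT 66) regions were wider, because a region then had to pass fewer comparisons.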

How the data were processed

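The values are covered lengths of H3K4me3 regions in 2 KO and 2 WT testis libraries. The authors deposited 1 region list per library, with start, end and a score for each region that their tool gave and whose scale is not stated. Bowtie, HOMER and the mm9 build are named per the submitters' processing notes; for versions, settings, filters and use of the inputs, nothing is given in the sources used here. Deposited start and end positions were used as they stand, and the deposited score only to rank and filter regions within its own list. Starts are printed counting from 1.

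Intervals of chromosomes 1 to 19 were merged where they overlapped or touched, with Python 3.11.15 and pandas 2.3.3, and the covered length of each library was summed in each merged region. Log2 ratios are those of mean KO over mean WT covered length, without a pseudocount. The merging and the rule were tested on simulated lists. The score step is the largest value of which all scores below 100 were whole multiples within 0.055. Absolute depth is unknown, so no interval from counts is given.

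The members and lists were chosen with earlier results of these data known. The regions named were the 12 with the largest margin, the 8 with the largest ratio, the 5 widest in WT and the regions nearest to either side of the rule; others are said to be chosen later or were named for an interval gap, a top score or a neighbour. Gene lists that had been planned were not used, since gene positions in mm9 were not used here, and no sequence is printed for the same reason. With 2 libraries per genotype, and members chosen on the lengths themselves, no test was made. The closing section gives the alternatives: a stricter score, wider merging, spans, scaled lengths, a larger margin, shorter lists and libraries left out.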

Additional observations from a re-analysis of the deposited data

How the results depend on the processing

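The number of wider regions was 302 without regions under the 25th percentile of score, 443 with regions up to 500 bp apart merged, 438 with spans, 300 with lists of one length and, in an alternative added later, 404 without regions at 501 bp. It was 165 with a margin of at least 100 bp and 2706 with scaled lengths. The number narrower stayed within 1.5 times of 4528, except with scaled lengths (1827) and with WT 74 and KO 73 alone (7570). That pair, chosen after seeing the data for its like score steps, gave 3215 wider regions, a median margin of 151 bp, a median log2 ratio of 0.18 and 98.9% of regions gaining at the outer edges only. Without 1 library in turn, wider regions numbered 927 to 1673, narrower ones 5341 to 6757, the median margin ran from 82 to 121 bp, the median log2 ratio from 0.17 to 0.24 and the outer-edge share from 98.0% to 99.4%. The outer-edge share was 99.2% with the stricter score and 99.7% with spans, which close gaps by construction. Fewer comparisons per region, by construction, raise the counts and favour larger margins without a library. No paired analysis was possible because the genotypes share no replicate number. Depth beyond the score steps is unknown.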

Other observations

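The sex chromosomes were outside the rule. On X, 16 of 216 regions found in all 4 libraries (7.41%) were wider in both KO libraries by the same comparison and 40.7% were narrower, against 4.66% and 47.6% on the autosomes. Their median margin was 81.5 bp. On Y, 2 of 6 such regions were wider and 33.3% narrower. These shares were not tested.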
